A study of Mus musculus with 6 samples.

Results

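The genes described are 9 mouse genes, the ADP-ribosyltransferase genes *Parp1*, *Parp2*, *Parp8*, *Parp9*, *Parp10*, *Parp11*, *Parp12* and *Parp14*, together with *Dtx3l*, chosen by their listed names among 29097 genes. They were measured in Smart-seq2 libraries of neutrophils sorted from peripheral blood (PB) as CD45+CD11b+Ly6G+ cells. The LIP group, labelled Lig by the submitters, had silk ligatures tied around the second molars for 14 d (ligation-induced periodontitis), and the Ctrl group stayed unligated over the same time. All donors were male C57BL/6 mice of 8 weeks, and each of the 3 libraries per group came from neutrophils pooled from 5 mice. The comparison asks how these genes differ in libraries sorted as PB neutrophils between mice with and without local chronic gingival inflammation. In Smart-seq2, whole transcripts are reverse-transcribed and the cDNA is multiplied by PCR. No molecular identifiers are attached, so a read is not an independent molecule.

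PARP enzymes transfer ADP-ribose from NAD+ onto proteins. PARP1 and PARP2 are activated by DNA strand breaks and build poly(ADP-ribose) chains that recruit repair factors, while most other family members attach single ADP-ribose units. *Parp9*, *Parp10*, *Parp11*, *Parp12*, *Parp14* and *Dtx3l* are known as genes that respond to interferon, and DTX3L is a ubiquitin ligase that works in a complex with PARP9. These 6 are called interferon-responsive here, and *Parp1*, *Parp2* and *Parp8* are called constitutive, as names for groups set by prior knowledge and not by these libraries.

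Sequence upstream of the listed starts is shown for a member of each group, because letters of known interferon response elements can be looked for there. RefSeq promoter windows (GRCm38.p6, 250 bases before to 50 after a start) were matched for 6 of the 9 genes, which gave 7 windows, since *Parp11* has an upstream and a downstream start. Each window was searched on both strands for the core of the interferon-stimulated response element, GAAANNGAAA, which 3.44% of 32851 windows hold, and for the core of the gamma-activated site, TTCNNNGAA, which 8.30% of them hold. In the sequences below, capitals mark these letters and all other bases are in lower case, 5′ to 3′ on the plus strand, over the 250 bases before the start.
Parp1, chr1:180568641-180568890: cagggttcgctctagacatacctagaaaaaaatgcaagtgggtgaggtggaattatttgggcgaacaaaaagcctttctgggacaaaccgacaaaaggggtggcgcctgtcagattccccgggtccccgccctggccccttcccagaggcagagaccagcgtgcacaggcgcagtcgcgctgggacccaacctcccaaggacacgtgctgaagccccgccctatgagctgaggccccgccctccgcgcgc
Parp11, upstream start, chr6:127446590-127446839: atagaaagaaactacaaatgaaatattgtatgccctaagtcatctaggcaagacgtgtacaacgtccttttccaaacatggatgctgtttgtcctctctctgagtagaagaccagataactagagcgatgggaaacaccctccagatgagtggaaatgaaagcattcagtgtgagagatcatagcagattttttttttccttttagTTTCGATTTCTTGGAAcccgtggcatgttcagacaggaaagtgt

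The upstream *Parp11* window held both cores, with the response element core TTTCGATTTC on the reverse strand from -44 to -35 and the gamma-activated core TTCTTGGAA from -37 to -29 relative to the start, so that the matches overlap. The *Parp1* window held neither. The windows of *Parp2*, *Parp8*, *Parp12* and *Dtx3l* and the downstream window of *Parp11* held neither as well. *Parp11* was thus the only 1 of the 6 genes with a window that held either core. The pair shown does not stand for a difference between the groups, since *Parp12* and *Dtx3l* are also interferon-responsive. A match is a description of letters and the lack of one speaks for these 300 bases alone.

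The deposited counts summed to between 52186555 and 57262379 reads per library, and both reads per gene and FPKM (fragments scaled to gene length and to the library's reads) were given for every gene. The test was edgeR's quasi-likelihood test on counts with TMM normalization, a scaling that assumes most genes do not change, and its factors lay between 1.10 and 1.13 in the Ctrl libraries and between 0.889 and 0.905 in the LIP libraries. A fold change of the test is therefore higher than the ratio of FPKM values. A gene was tested where its FPKM averaged 1 or more over the 6 libraries, which held for 10440 genes, and it is called at a Benjamini-Hochberg adjusted p under 0.05 over all of them. Neutrophil RNA was read from 16 marker genes, such as *S100a8* and *Csf3r*, which were present in both groups. Of these, 16 of 16 were higher in LIP, with a summed FPKM of 15433 to 18623 in the Ctrl and 53161 to 57988 in the LIP libraries. Their presence does not show how pure the sorted cells were. RNA of other blood cells was present as well: haemoglobin genes took 14.6% to 15.0% of the counts in the Ctrl libraries and 1.55% to 1.61% in the LIP libraries, and 10 of 10 B cell markers (summed FPKM 3734.5 to 4024 against 537 to 605) and 10 of 10 T cell markers (275 to 314 against 46.6 to 60.7) were lower in LIP. The 7 erythroid markers summed to 180630 to 186840 FPKM in Ctrl, above the neutrophil markers, and to 19478 to 20186 FPKM in LIP, below them. In the other direction, 6 of 6 platelet markers were higher in LIP (summed FPKM 768 to 1027 against 1654 to 1924, median log2 fold change 1.24), as were 4 of 6 monocyte markers, with 1 lower (84.3 to 104 against 128 to 144, median 0.91). The median log2 fold change of the 16 neutrophil markers was 1.89, above the 1.27 of *Parp10*, the highest among the 8 tested genes of the set. The part of neutrophil, platelet and monocyte RNA in the level of *Parp8*, *Parp9*, *Parp10* and *Parp12* was not tested. None of these lymphocyte markers was at 0 on average in either group.

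Of the 9 genes, 8 passed the filter on low values, and *Parp11* did not. Of the 8 tested, 4 were higher in LIP (*Parp8*, *Parp9*, *Parp10* and *Parp12*), where 26.5% of all tested genes were called higher, and 2 were lower (*Parp1* and *Parp2*), where 27.2% of all tested genes were called lower. *Parp14* and *Dtx3l* did not pass the test. The median log2 fold change of the 8 was 0.49, beside -0.095 over all tested genes. In CPM, the TMM-normalized counts scaled to a common library size, the LIP libraries lay wholly above the Ctrl libraries for 5 of the 8, against 30.3% of all tested genes, and wholly below for 2, against 33.1%. These counts rest on the scaling: when libraries were scaled on the 16 neutrophil markers, the median of all genes moved to -2.04, and 0 of the 8 were higher and 8 of 8 lower (*Parp1* at -3.88 and *Parp2* at -3.82), beside 34 and 9464 of all tested genes. With library totals 1919 of all tested genes were higher and 4146 lower, against 2766 and 2835 with TMM. Relative to the median of all genes, 6 of the 8 lay above it and *Parp1* and *Parp2* below it in each of the 16 fits run. A change of scaling moves all genes by nearly the same amount, so the scalings could hardly differ in this. *Parp8* lay 1.003 above the median with TMM, 1.000 with library totals and 0.995 with neutrophil markers. Fits without 1 library reuse the other libraries, so the 16 fits are not independent support. In what follows, values in FPKM are given for replicates 1, 2 and 3 of a group in that order, and in bulk RNA fewer cells of a type and less RNA per cell cannot be told apart.

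**Figure D1:**
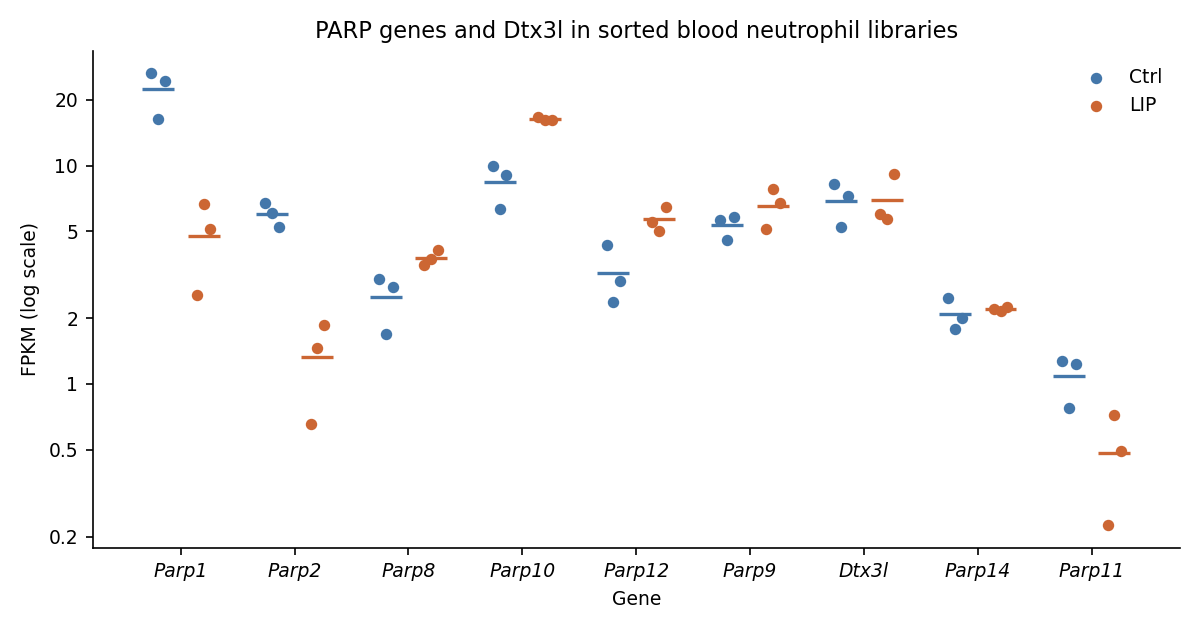
FPKM of the 9 genes (log axis) in the 3 Ctrl (blue) and 3 LIP (orange) libraries, 1 point per library, with a line at each group's mean. *Parp1* and *Parp2* lie lower in every LIP library than in any Ctrl library, and *Parp10* lies between 16.2 and 16.8 in LIP, above its Ctrl range of 6.36 to 9.93.

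*Parp1*, the main DNA break sensor of the family (chr1:180568924-180601254, plus strand, GRCm38), had the highest level of the 9 genes in Ctrl. It measured 26.5, 16.3 and 24.5 FPKM in the Ctrl libraries and 2.56, 6.66 and 5.13 FPKM in the LIP libraries. The groups did not overlap, and the highest LIP library stayed well under the lowest Ctrl library. The change was -1.92 on the log2 scale (SE 0.303, 3.78-fold lower in LIP, edgeR adjusted p = 0.000400). *Parp1* was called lower in 6 of 6 fits that left out a library, with log2 fold changes from -2.23 to -1.62, the latter without LIP replicate 1.

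*Parp2*, the close relative that shares the break-dependent activity (chr14:50807841-50821301, plus strand), moved by nearly the same amount. Its level was 6.76, 6.10 and 5.26 FPKM in Ctrl and 0.657, 1.46 and 1.86 FPKM in LIP. Every LIP library lay under every Ctrl library. The log2 fold change was -1.88 (SE 0.356, 3.67-fold lower, edgeR adjusted p = 0.00133). Both genes varied more among LIP libraries than among Ctrl libraries, with coefficients of variation of CPM of 43.0% against 22.7% for *Parp1* and 46.1% against 11.5% for *Parp2*, and both were lowest in LIP replicate 1.

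The B and T cell markers given above moved in the direction of *Parp1* and *Parp2*. Their median log2 fold changes were -2.60 over 10 B cell markers and -2.41 over 10 T cell markers, and their summed FPKM was 6.63 and 5.25 times as high in Ctrl as in LIP. Within LIP, the library with the lowest *Parp1* level, replicate 1, had summed B cell markers of 537 FPKM against 605 and 598 in replicates 2 and 3, and summed T cell markers of 60.7 FPKM against 57.4 and 46.6. Erythroid markers were lower in LIP as well, 7 of 7, with a median log2 fold change of -3.01. Their summed FPKM was 9.35 times as high in Ctrl as in LIP. The part of lymphocyte and erythroid RNA in the level of *Parp1* and *Parp2* was not tested.

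*Parp8*, which encodes a mono-ADP-ribosyltransferase (chr13:116854820-117025522, minus strand), was grouped with the constitutive genes but moved the other way. It measured 3.02, 1.70 and 2.78 FPKM in Ctrl and 3.49, 3.74 and 4.12 FPKM in LIP, with no overlap. The log2 fold change was 0.91 (SE 0.219, 1.88-fold higher, edgeR adjusted p = 0.00549). It was 0.58 with library totals (edgeR adjusted p = 0.0466), and limma on log2(FPKM + 1) and log2(FPKM + 0.1) did not call it (adjusted p = 0.0612 and 0.0647). The 3 genes named constitutive thus did not move as one.

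Of the interferon-responsive genes, *Parp10*, a mono-ADP-ribosyltransferase (chr15:76231174-76243441, minus strand), had the highest log2 fold change of the 8. Its level was 9.93, 6.36 and 9.02 FPKM in Ctrl and 16.8, 16.3 and 16.2 FPKM in LIP. The LIP libraries were close to each other, with a coefficient of variation of CPM of 2.37% against 20.6% in Ctrl, and lay above all Ctrl libraries. The change was 1.27 on the log2 scale (SE 0.165, 2.41-fold higher, edgeR adjusted p = 0.000104), and 6 of 6 fits that left out a library called it. *Parp10* shares 1401 bases on the same strand with *Plec*, whose mean FPKM was 3.97, and reads in the shared part could count for either gene.

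*Parp12*, an enzyme with CCCH zinc fingers known to restrict RNA viruses (chr6:39086410-39118349, minus strand), was also higher in every LIP library. It measured 4.32, 2.38 and 2.97 FPKM in Ctrl and 5.55, 5.04 and 6.47 FPKM in LIP. The groups did not overlap. It changed by 1.13 on the log2 scale (SE 0.248, 2.19-fold higher, edgeR adjusted p = 0.00319), again called in 6 of 6 fits that left out a library, and it was 0.68 with limma on log2(FPKM + 1) (adjusted p = 0.0143).

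*Parp9*, *Dtx3l* and *Parp14* lie beside each other on chromosome 16, and their changes were smaller. *Parp9*, a macrodomain protein and the partner of DTX3L (chr16:35938470-35972605, plus strand), had 5.66, 4.57 and 5.84 FPKM in Ctrl and 5.10, 7.81 and 6.75 FPKM in LIP, which overlap. Its CPM, at 26.3, 21.9 and 27.7 for Ctrl against 30.1, 45.6 and 39.4 for LIP, did not overlap. This was a log2 fold change of 0.60 (SE 0.198, 1.51-fold higher, edgeR adjusted p = 0.0261). This call was lost without Ctrl replicate 2 (edgeR adjusted p = 0.0709), without LIP replicate 2 (0.107), without LIP replicate 3 (0.0605), without the low-value filter (0.0649) and with library totals in place of TMM (0.253). It was also lost with limma at pseudocounts of 1 and 0.1 (adjusted p = 0.275 and 0.274).

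*Dtx3l*, the ubiquitin ligase of the pair (chr16:35926511-35939151, minus strand), did not pass the test. It measured 8.21, 5.23 and 7.27 FPKM in Ctrl and 5.98, 5.73 and 9.16 FPKM in LIP, and the groups overlapped. LIP replicate 3 was the highest of the 6 libraries and the other LIP libraries lay inside the Ctrl range. The log2 fold change was 0.32 (SE 0.220, edgeR adjusted p = 0.239), and -0.0002 with library totals. It was 0.07 without LIP replicate 3 and 0.18 without Ctrl replicate 2. *Parp9* and *Dtx3l* share 682 bases on opposite strands at their starts, and *Parp9* shares 5854 bases with the antisense gene *Gm15564*. That gene had 2493, 2465 and 42 reads in Ctrl and 0, 0 and 0 in LIP, while *Parp9* had 1585, 1314 and 1618 reads in Ctrl. Sharing of reads in the overlaps was not tested. Whether counting used strand is not given in the sources used here, and without strand such reads cannot be told apart.

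*Parp14*, a mono-ADP-ribosyltransferase with macrodomains that is known as a co-activator of STAT6 (chr16:35832874-35871544, minus strand), did not pass the test either. Its level was 2.48, 1.78 and 2.01 FPKM in Ctrl and 2.20, 2.16 and 2.24 FPKM in LIP. In CPM the LIP libraries, at 24.8, 24.1 and 25.0, lay above the Ctrl libraries, at 22.0, 16.3 and 18.2, by a small margin. The log2 fold change was 0.39 (SE 0.195, edgeR adjusted p = 0.117), and 0.06 with library totals (adjusted p = 0.797). Its coefficient of variation in LIP was 1.97%, the lowest of the 8 tested genes.

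*Parp11*, a mono-ADP-ribosyltransferase (chr6:127446840-127494240, plus strand) whose upstream sequence holds the letters shown above, had a mean of 0.787 FPKM and was not tested. It measured 1.27, 0.773 and 1.24 FPKM in Ctrl and 0.225, 0.721 and 0.496 FPKM in LIP, from 517, 323 and 496 reads and from 97, 312 and 202 reads. In FPKM each LIP library lay under each Ctrl library, but in CPM the groups overlapped, at 8.59, 5.39 and 8.50 for Ctrl against 1.93, 6.12 and 4.28 for LIP. With edgeR's filterByExpr in place of the FPKM filter its log2 fold change was -0.82 (SE 0.455, adjusted p = 0.211).

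**Figure D2:**
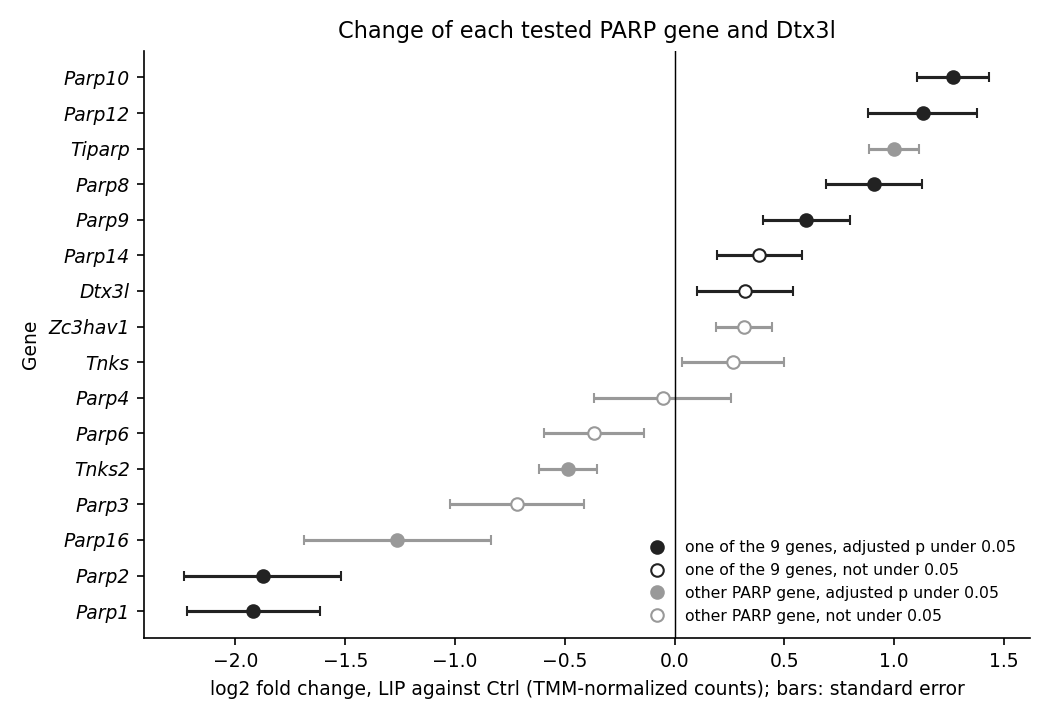
Log2 fold change of LIP against Ctrl (x axis, TMM-normalized counts) with its standard error for the 8 tested genes of the set (black) and the 8 other PARP genes (grey), ordered by size. Filled points passed an adjusted p under 0.05. *Parp10* stands highest at 1.27 and *Parp1* lowest at -1.92.

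The order of levels, compared in FPKM because it is per length, differed between the groups. In Ctrl, *Parp1* (22.4 ± 5.39, mean ± SD, n = 3) stood apart above *Parp10* (8.44 ± 1.86). *Parp10*, *Dtx3l*, *Parp2* (6.04 ± 0.752) and *Parp9* followed with overlapping neighbours, then, apart from them, *Parp12*, *Parp8* and *Parp14*, which overlapped in turn, and *Parp11* came last. In LIP, *Parp10* (16.4 ± 0.309) stood apart at the top, and *Dtx3l*, *Parp9*, *Parp12*, *Parp1* (4.78 ± 2.07) and *Parp8* followed with each neighbour overlapping the next. *Parp14* (2.20 ± 0.0416) stood apart below them, above *Parp2* (1.33 ± 0.611) and *Parp11*, which overlapped.

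As shares of the summed FPKM of the 9 genes, *Parp1* made up 38.4% ± 2.10 in Ctrl and 9.75% ± 3.71 in LIP (n = 3 each). *Parp10* made up 14.5% ± 0.386 in Ctrl and 34.4% ± 4.47 in LIP. The share of *Parp12* was 5.49% ± 0.764 and 11.9% ± 1.50, that of *Parp8* 4.25% ± 0.429 and 7.87% ± 0.330, and that of *Parp2* 10.7% ± 2.51 and 2.68% ± 1.02. The place of the leading gene thus passed from *Parp1* to *Parp10* in the make-up of the sum, while the sum itself was 68.1, 45.2 and 60.9 FPKM in Ctrl and 42.5, 49.6 and 52.4 FPKM in LIP, which overlap. Summed over the 6 interferon-responsive genes the level was 31.9, 21.1 and 28.4 FPKM in Ctrl and 35.8, 37.7 and 41.3 FPKM in LIP. Over the 3 constitutive genes it was 36.3, 24.1 and 32.6 FPKM in Ctrl and 6.71, 11.9 and 11.1 FPKM in LIP.

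**Figure D3:**
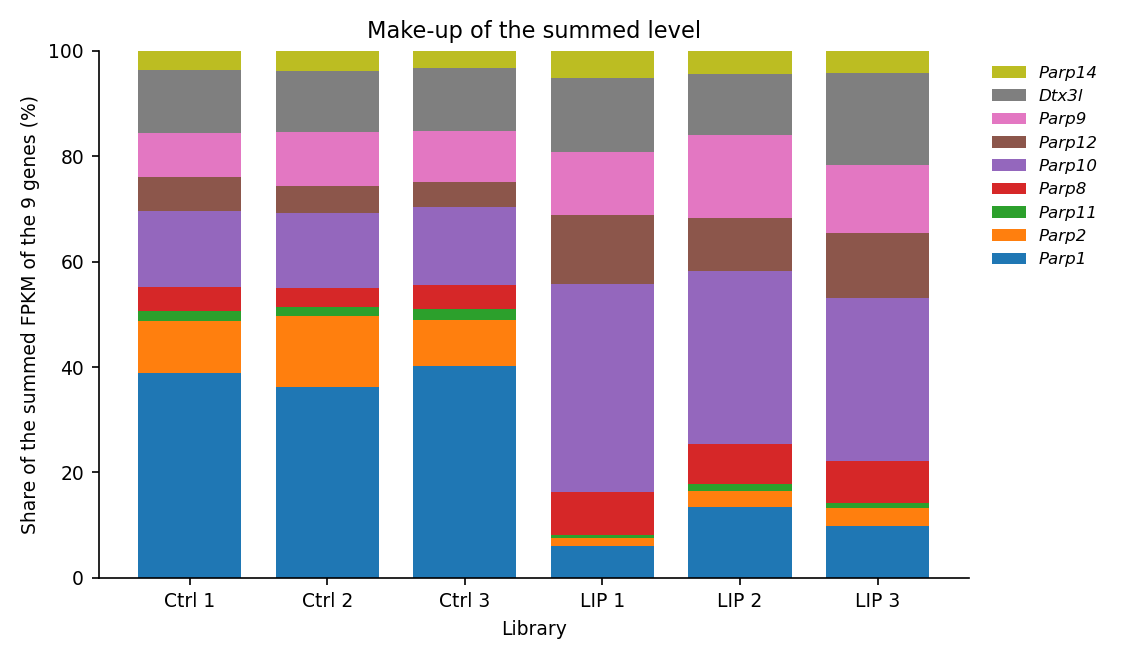
Share of the summed FPKM of the 9 genes (y axis, percent) in each of the 6 libraries (x axis), stacked by gene. *Parp1*, at the base, takes 36.1% to 40.3% in the Ctrl libraries and 6.02% to 13.4% in the LIP libraries, and *Parp10* takes 14.1% to 14.8% and 30.9% to 39.4%.

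A ratio of 2 genes within a library does not depend on how libraries are scaled, and 7 such ratios were compared with exact two-sided permutation tests, for which the smallest p with 3 libraries against 3 is 0.1. The log2 ratio of the summed interferon-responsive to the summed constitutive genes was -0.19 ± 0.0066 in Ctrl and 1.99 ± 0.384 in LIP (mean ± SD, n = 3), a difference of 2.19 (exact permutation p = 0.1, adjusted over the 7 ratios 0.233). It was higher in 3 of 3 LIP libraries than in any Ctrl library. *Parp8* over *Parp1* differed by 2.95 and *Parp14* over *Parp1* by 2.40, both with the same exact p of 0.1 and no overlap. These 3 ratios all hold *Parp1* below the line and are not independent of each other. They still depend on the mix of cells in a library, and the part of lymphocyte and erythroid RNA in them was not tested. The summed ratio is not a change shared by all genes of a group, since *Parp8* was higher and *Parp11* lower in FPKM in LIP.

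Ratios between partners overlapped between the groups. *Dtx3l* over *Parp9* was 0.35 ± 0.173 in Ctrl and 0.07 ± 0.464 in LIP (exact permutation p = 0.5), with LIP replicate 2 lowest at -0.45. *Parp14* over *Parp9* differed by -0.19 (exact permutation p = 0.4) and *Parp12* over *Parp10* by -0.13 (exact permutation p = 0.6). Single libraries moved these differences: without LIP replicate 2, *Dtx3l* over *Parp9* differed by -0.01 in place of -0.28 and *Parp14* over *Parp9* by -0.04, while without LIP replicate 3 and without LIP replicate 1 they differed by -0.46 and by -0.36. *Parp12* over *Parp10* differed by -0.02 without Ctrl replicate 1 and by -0.23 without LIP replicate 3. *Parp2* over *Parp1* was -1.87 ± 0.409 in Ctrl and -1.87 ± 0.367 in LIP (exact permutation p = 1.0), with single libraries from -2.22 to -1.42, and the difference lay between -0.20 (without LIP replicate 3) and 0.23 (without Ctrl replicate 2). With 3 libraries per group a p of this size does not show that the ratios are equal.

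**Figure D4:**
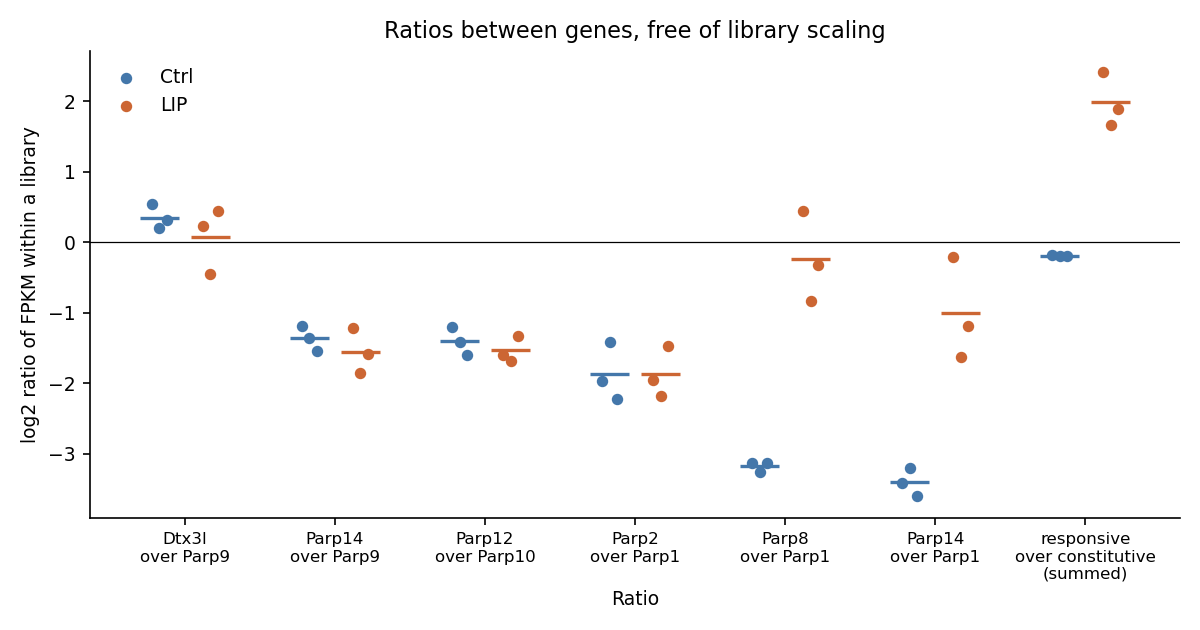
Log2 ratio of FPKM between genes within each library (y axis) for 7 ratios (x axis), with 1 point per library in Ctrl (blue) and LIP (orange) and lines at the group means. The ratio of summed interferon-responsive to constitutive genes lies between -0.20 and -0.19 in Ctrl and between 1.67 and 2.42 in LIP, while the first 4 ratios overlap between groups.

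The other 8 genes of the PARP family were all tested. Of these, 1 was higher in LIP and 2 were lower, beside 26.5% and 27.2% of all tested genes. The median log2 fold change of these other 8 was -0.21. Without Ctrl replicate 3 the counts were 2 and 1, and without Ctrl replicate 2 also 1 was lower. Of all 10440 tested genes, 2419 were higher and 2255 lower without Ctrl replicate 3, and 2385 lower without Ctrl replicate 2. *Tiparp*, a mono-ADP-ribosyltransferase induced by the aryl hydrocarbon receptor, was higher by 1.00 (SE 0.115, edgeR adjusted p = 4.38e-05), from 38.9 ± 3.34 FPKM in Ctrl to 62.7 ± 6.55 FPKM in LIP (n = 3), a level above that of every one of the 9 genes. *Parp16*, an enzyme of the endoplasmic reticulum, was lower with a log2 fold change of -1.26 (SE 0.425, edgeR adjusted p = 0.0283), and the tankyrase *Tnks2* with -0.49 (SE 0.131, edgeR adjusted p = 0.00976). *Zc3hav1*, the zinc finger antiviral protein, had 21.1 ± 2.84 FPKM in Ctrl and 21.2 ± 1.95 FPKM in LIP, with a log2 fold change of 0.32 (edgeR adjusted p = 0.0578). The RefSeq windows of these genes held the interferon element core in *Parp4*, with 2 overlapping matches, and the gamma-activated core in *Parp16*. The log2 fold change of *Parp4* was -0.05 (SE 0.313, edgeR adjusted p = 0.892).

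Of 13 genes that remove or bind ADP-ribose, 12 were tested, 1 was higher and 3 were lower, and their median log2 fold change was -0.44. *Adprh*, which removes ADP-ribose from arginine, was higher by 1.15 (SE 0.122, edgeR adjusted p = 2.54e-05), from 39.1 ± 4.08 to 70.2 ± 5.53 FPKM. Against the 27.2% of all tested genes called lower, 3 of 12 is not a share that sets the list apart, and *Parg*, the main hydrolase of poly(ADP-ribose), had a log2 fold change of -0.62 (SE 0.343, edgeR adjusted p = 0.152). Without LIP replicate 2, 6 genes of this list were lower, beside 2511 of all 10440 tested genes. *Adprhl2*, the hydrolase that removes ADP-ribose from serine, had a log2 fold change of -1.34 (SE 0.211, edgeR adjusted p = 0.000381), and *Hpf1*, the cofactor that directs PARP1 and PARP2 to serine, one of -1.29 (SE 0.224, edgeR adjusted p = 0.000752). *Chd1l*, a chromatin remodeller that binds poly(ADP-ribose), had one of -1.07 (SE 0.342, edgeR adjusted p = 0.0224).

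Of 18 partners in DNA strand break repair, 13 were tested, 1 was higher and 5 were lower. Their median log2 fold change was -0.78. Over all tested genes, 26.5% were higher and 27.2% lower. *Xrcc6*, a subunit of the Ku heterodimer that binds DNA ends, was lowest at -2.23 (SE 0.316, edgeR adjusted p = 0.000193). *Neil1*, a glycosylase that removes oxidised bases, measured -2.10 (SE 0.344, edgeR adjusted p = 0.000499), *Apex1*, the endonuclease that cuts abasic sites, -1.76 (SE 0.614, edgeR adjusted p = 0.0329), and *Xrcc1*, the scaffold recruited by poly(ADP-ribose), -0.95 (SE 0.238, edgeR adjusted p = 0.00661). Without LIP replicate 1, 8 genes of this list were lower, beside 2770 of all 10440 tested genes. As for *Parp1*, lymphocyte and erythroid markers moved in the direction of the lower genes, and their part was not tested.

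Of 14 genes that supply or use NAD+, 8 were tested, 6 were higher and 1 was lower. Their median log2 fold change was 0.86. Over all tested genes, 26.5% were higher and 27.2% lower. *Bst1* and *Cd38*, which both encode surface enzymes that split NAD+, moved in opposite directions. *Bst1* was higher by 2.06 (SE 0.135, edgeR adjusted p = 9.68e-07), from 35.5 ± 5.76 to 119 ± 7.20 FPKM, and *Cd38* had a log2 fold change of -2.01 (SE 0.339, edgeR adjusted p = 0.000621). *Nadk*, the kinase that makes NADP+, was higher by 1.56 (SE 0.146), *Nampt*, the rate-limiting enzyme of NAD+ salvage, by 0.84 (SE 0.180) and the mitochondrial kinase *Nadk2* by 0.88 (SE 0.172), with edgeR adjusted p-values of 9.98e-06, 0.00287 and 0.00160. With scaling on neutrophil markers, 0 genes of this list were higher, beside 34 of all 10440 tested genes.

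Of 13 Deltex ligases and STAT pathway genes, 12 were tested, 8 were higher and 1 was lower. Their median log2 fold change was 0.57. Over all tested genes, 26.5% were higher and 27.2% lower. *Dtx4* was higher by 1.39 (SE 0.365, edgeR adjusted p = 0.00866) and *Dtx1*, a ligase known from lymphocytes, had the lowest value at -2.60 (SE 0.275, edgeR adjusted p = 2.36e-05). The transcription factors *Stat3* and *Stat6*, the latter the partner of PARP14, were higher by 1.34 (SE 0.112, edgeR adjusted p = 4.58e-06) and by 0.94 (SE 0.169, edgeR adjusted p = 0.000945), and the kinase *Jak1* by 0.50 (SE 0.154, edgeR adjusted p = 0.0192). Here too, 0 genes were higher when libraries were scaled on neutrophil markers, beside 34 of all 10440 tested genes.

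Within 250 kb of the span of *Parp14*, *Dtx3l* and *Parp9*, the table lists 23 genes, of which 13 were tested. Of the 10 tested genes other than these 3, 6 were higher in LIP, 1 was lower and 3 did not pass the test. Over all tested genes, 26.5% were higher and 27.2% lower. The nearest protein-coding neighbour downstream of *Parp9*, *Kpna1*, an importin, had a log2 fold change of -0.02 (SE 0.225, edgeR adjusted p = 0.940). *Fam162a* and *Ccdc58*, further on, had -0.43 (edgeR adjusted p = 0.125) and -1.20 (edgeR adjusted p = 0.0605). On the other side, *Hspbap1* was higher by 1.09 (SE 0.285, edgeR adjusted p = 0.00829) and *Slc49a4* by 0.41 (SE 0.159, edgeR adjusted p = 0.0497). The stefin genes *Stfa2l1*, *Cstdc4*, *Csta3* and *Csta2*, which begin 218 kb and more from the 5′ end of *Dtx3l*, were higher by 1.85 to 2.57, and as near-identical copies they are uncertain where reads could be split among them. The lower gene was the antisense *Gm15564* named above.

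**Figure D5:**
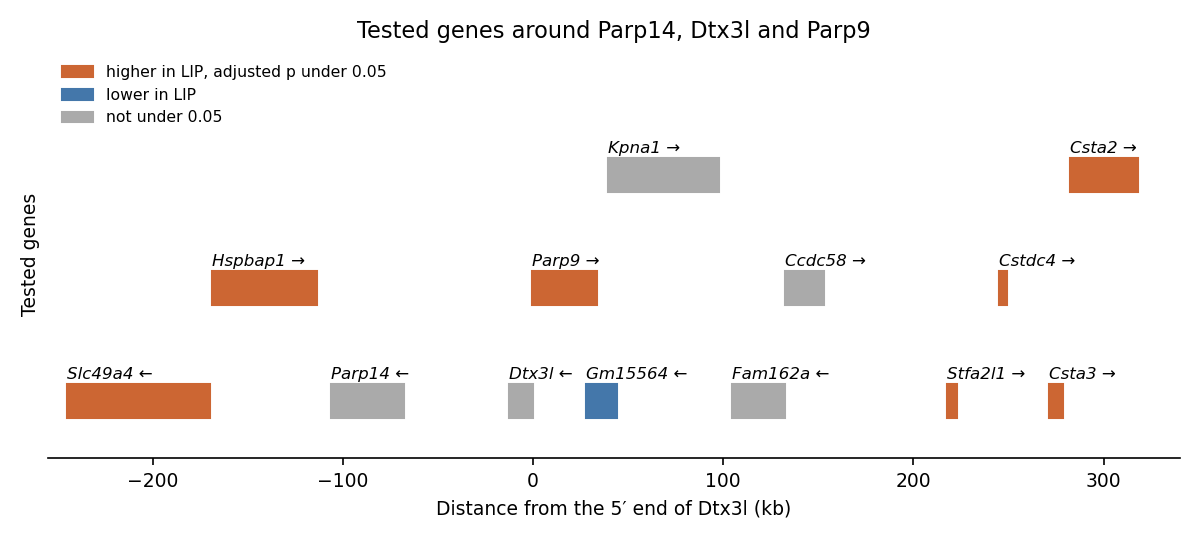
Positions of the 13 tested genes around *Parp14*, *Dtx3l* and *Parp9* in kb from the 5′ end of *Dtx3l* (x axis), drawn in lanes to keep names apart, with arrows for strand. Orange genes were higher in LIP, the blue gene was lower and grey genes did not pass an adjusted p of 0.05. *Parp9* was called higher, and its partner *Dtx3l*, whose start overlaps it, and *Parp14* did not pass. *Parp9* was called in 3 of 6 fits that left out a library. The ratios of *Dtx3l* and *Parp14* to *Parp9* overlapped between groups (exact permutation p = 0.5 and 0.4).

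For each tested gene the most similar profile was sought among 5324 other tested genes whose FPKM averaged 5 or more, as the root mean square distance between centred log2 CPM values over the 6 libraries. The nearest to *Parp1* was *Tnfrsf13b*, a receptor of B cells, at 0.179, followed by *Tigd2* at 0.261. The same *Tnfrsf13b* was the next nearest to *Parp2* at 0.190, behind the linker histone *H1f5* at 0.0939. *Parp8* was nearest to *Osbpl2* (0.0361) and *Clic4* (0.0628), and *Parp10* to *Sla* (0.0474) and *Lasp1* (0.0483). *Parp12* was nearest to *Prex1* (0.0780) and *Ptprc* (0.101), and *Parp9* to *Smad2* (0.0819) and *Mfsd1* (0.0879). *Parp14* was nearest to *Spty2d1* (0.0265) and *Itpk1* (0.0335), and *Dtx3l* to *Lrrc41* (0.108) and *Inpp5d* (0.115). Within the 8 tested genes the closest pair was *Parp10* and *Parp12* at 0.172, while *Parp9* and *Dtx3l* lay 0.317 apart and *Parp1* and *Parp2* 0.318. With 6 libraries in 2 groups, most of such a distance is set by the difference between groups, and the values are a description without a test.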

How the data were processed

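The series holds 6 Smart-seq2 libraries, 3 Ctrl and 3 LIP, sequenced with paired ends. For every gene the authors deposited a raw read count, with no normalization, and an FPKM value scaled by gene length and library total. The submitters' processing notes name cutadapt 1.9, FastQC and GRCm38. The aligner, the counter and the use of strand are not given in the sources used here. Columns of the authors' own comparison (fold changes and p-values) were not used.

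Groups came from the labels. Libraries are pools of different mice, so no block was used. Chi-square per gene between libraries of a group was 39.1 to 77.1, far above the sampling noise of reads, and p-values measure the spread between these pools. Nothing in the sources used here says whether they were sequenced in batches. Counts were tested with edgeR 4.0.16 (R 4.3.3) by the quasi-likelihood test with TMM normalization, after keeping genes whose FPKM averaged 1 or more, and p-values were Benjamini-Hochberg adjusted over 10440 genes. SE is the size of the log2 fold change over the root of its F statistic. The common biological coefficient of variation was 0.265. Depth was 52186555 to 57262379 counts per library. The chi-square is an average over genes, so it does not show that counting error was small for each gene. *Parp14*, with 1245, 1229 and 1182 reads in LIP, had a coefficient of variation of 1.97% there. Error from sampling molecules before PCR was not separated from the spread between pools. The script was tested on simulated data in which most genes did not change and changes were balanced in direction. The simulation therefore does not test the scaling where RNA make-up differs between groups as here.

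The members, lists and tests were chosen with earlier results of these data known. Named genes are all 9 members, and from each list the called genes with the highest and the lowest change and up to 3 more with the highest mean FPKM, the tested genes around *Parp9* and, for each member, the 2 nearest profiles. *Zc3hav1*, *Parp4*, *Parg*, *S100a8* and *Csf3r* fall outside this rule and were named after their values were seen. The result of 1 gene that the rule names is not reported here. In the table, 50 gene names occur more than once, and the entry with the higher mean FPKM was used. Alternatives were other scalings (library totals, median-of-ratios factors, neutrophil markers), other filters, DESeq2 1.42.0, limma 3.58.1 on log2(FPKM + 1) and log2(FPKM + 0.1), a replicate block, and fits without each library in turn. Promoter windows are from RefSeq (GRCm38.p6), and coordinates are 1-based. The monocyte, NK cell and platelet marker lists gave 4, 3 and 6 of 6 genes higher and 1, 0 and 0 lower, and 7 of 7 erythroid genes were lower.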

Additional observations from a re-analysis of the deposited data

How the results depend on the processing

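Of the 8 tested genes, *Parp1* and *Parp2* were called lower in every alternative run, while *Parp10* and *Parp12* kept their call and direction in all but the scaling on neutrophil markers. Under that scaling, where the median of all genes was -2.04, the log2 fold changes of *Parp8*, *Parp9*, *Parp10*, *Parp12*, *Parp14* and *Dtx3l* reversed to -1.04, -1.35, -0.68, -0.82, -1.57 and -1.62, with 0 members higher and 8 lower. With library totals *Dtx3l* stood at -0.0002. With limma on log2(FPKM + 1) and on log2(FPKM + 0.1), 2 members were higher, since *Parp8* (adjusted p = 0.0612 and 0.0647) and *Parp9* (0.275 and 0.274) lost their calls. Of all tested genes, 2010 and 1974 were higher with limma, against 2766 with TMM. *Parp9* also lost its call without the low-value filter (edgeR adjusted p = 0.0649). The causes were not tested.

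Counts of list genes higher, under the scaling on neutrophil markers, were 0 in each of the 5 lists, and counts lower were 8 of the other PARP genes, 12 for ADP-ribose removal and binding, 6 for NAD, 13 for repair and 11 for Deltex and STAT. Of all tested genes, 34 were higher and 9464 lower under that scaling. With library totals, 4 other PARP genes, 7 ADP-ribose genes and 8 repair genes were lower, and 5 Deltex and STAT genes higher. Of all tested genes, 4146 were lower and 1919 higher with library totals. With limma (pseudocounts 1 and 0.1), 8 and 7 ADP-ribose genes and 8 and 8 repair genes were lower, and 5 and 4 Deltex and STAT genes higher. Of all 10440 tested genes, 4249 and 4144 were lower with limma, against 2835 with TMM. The genes higher were 2010 and 1974, against 2766. With median-of-ratios factors and with DESeq2, 2 other PARP genes were higher, beside 2891 and 2989 of all tested genes. Without a filter and with filterByExpr, 1 other PARP gene was lower, and filterByExpr gave 2 ADP-ribose genes higher and 2 NAD genes lower. The genes tested without a filter and with filterByExpr were 29097 and 16402. Of these, 2184 and 2688 were lower and 2430 and 2762 higher. Leaving out single libraries gave 1 to 2 other PARP genes higher and 1 to 2 lower, 2 to 6 ADP-ribose genes lower and 4 to 8 repair genes lower. Over all tested genes, the fits without a library gave 2419 to 2615 higher and 2255 to 2770 lower. The log2 ratio of interferon-responsive to constitutive genes differed by 1.78 with counts in place of FPKM.

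The deviations of same-numbered libraries correlated weakly, at 0.020, 0.057 and 0.037, and those of the other pairs at -0.052 to 0.023. These values alone do not show whether the replicate numbers pair the libraries. A fit with the replicate block changed no member's call and gave 5 ADP-ribose genes and 8 repair genes lower, beside 2822 of all tested genes. Libraries are deep in reads, but a read is not an independent molecule, and the sources of the spread between libraries were not separated.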
